A study of Arabidopsis thaliana and Arabidopsis thaliana x Arabidopsis arenosa and Arabidopsis arenosa with 18 samples.

Results

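Expansins are small plant cell wall proteins that loosen the bonds between cellulose and the other wall polymers without cutting them, and so let a cell grow when the wall is acid. The alpha-expansins (EXPA) and the beta-expansins (EXPB) have this activity, and the expansin-like A and B groups (EXLA, EXLB) are related in sequence, with little known of what they do to walls. Different members serve different tissues of Arabidopsis thaliana, among them growing leaves, root hairs, germinating seeds and pollen tubes. The superfamily was read as the 36 rows for EXPA1 to EXPA26, EXPB1 to EXPB6, EXLA1 to EXLA3 and EXLB1 among the 33602 loci of the gene count table. It was picked because 1 member, EXPA22, was high in hybrid seeds with a Col mother, that is, it was chosen by the counts of EXPA22 in Col hybrid and Col control seeds, which are therefore given as a description, with no test.

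The study compared seeds of crosses between A. thaliana mothers and fathers of the outcrossing relative Arabidopsis arenosa, 3 days after pollination. The cross with a Col-0 mother was described by the submitters as incompatible and that with a C24 mother as compatible. The mothers were diploid ColA9 or C24A9 plants, that is Col-0 or C24 hemizygous for a male-sterility construct, so all crosses with an A. thaliana mother, controls included, share that construct. There were 7 groups of 2 libraries, 14 in all, from 18 sample records, since each of the 4 A. thaliana control columns joined 2 records.

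Col control seeds came from ColA9 pollinated with Col-0, and C24 control seeds from C24A9 pollinated with C24. Col hybrid seeds and C24 hybrid seeds came from the same mothers pollinated by hand with diploid A. arenosa var. Strecno. Col hybrid siliques and C24 hybrid siliques were whole fruits of the same kind of cross. The A. arenosa control seeds had A. arenosa as both parents. The labels give 1 A. arenosa plant for all crosses of the first seed experiment and a single pair of plants for the siliques and the A. arenosa cross, so the hybrids stand for very few A. arenosa genotypes. The labels do not say that the libraries of a group came from separate plants, so a p-value here covers the spread between libraries, which may be technical. All tissue was bulk, so fewer cells of a type and less RNA per cell cannot be told apart. Hybrid libraries also hold reads of the A. arenosa father's alleles, counted on A. thaliana genes and not split by parent here. Reads of these alleles that were lost or placed on a related gene and a change in transcript cannot be told apart.

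The A. arenosa libraries held 1777781 and 2089616 gene reads, and the other 12 held 8931520 to 16149496. The first library of each A. thaliana control stood apart in rare transcripts: a read was found for 31430 and 28243 loci in the first Col and C24 control libraries against 23123 and 23105 in the second. Members at low level followed, with 35 of 36 expansins read in the first Col control library and 24 in the second. Markers of 4 tissues checked the labels. The summed level of 5 endosperm genes was 55.5 to 185.9 CPM (reads scaled by the library's total gene reads) in the 8 seed libraries with an A. thaliana mother, 8.43 to 16.9 in siliques, and 2.81 and 0.48 in the A. arenosa control, where FWA and ZOU were at 0. The 5 seed coat genes summed to 13921 to 19863 CPM in seeds with an A. thaliana mother, 2895 to 4171 in siliques, and 673 and 482 in the A. arenosa control. The 5 pollen genes summed to 1523 and 9838 CPM in the A. arenosa control, 48.8 to 177.1 in siliques and 3.83 to 24.1 in the other seeds. The sum of 5 fruit valve and dehiscence genes was similar everywhere, at 431 to 546 CPM, but its valve gene FUL was at 72.6 and 188.1 in the A. arenosa control and 65.2 to 96.6 in siliques, against 0.251 to 2.39 in the other seeds. SHP1 and SHP2 of that list were lower in siliques, at 102.9 to 137.0 and 101.1 to 117.7 CPM. In the other seeds they were at 154.3 to 241.6 and 193.2 to 246.8 CPM. The dehiscence genes IND and ALC were higher in siliques than in the other seeds, as FUL was, but were below silique level in the A. arenosa control. IND was at 1.69 and 4.79 CPM in the A. arenosa control and 16.5 to 23.2 in siliques, against 0.56 to 2.98 in the other seeds, and ALC at 56 and 63 reads in the A. arenosa control, 30.1 CPM in the second library, 108.7 to 125.5 in siliques and 48.7 to 72.6 in the other seeds. The A. arenosa control libraries thus lacked the defining endosperm reads of their label and carried pollen reads.

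The finding turns on a run of 6 alpha-expansin genes on chromosome 5, all on the minus strand, chr5:15726243-15740605 in the TAIR10.1 assembly, a span of 14.4 kb. In order of position they are EXPA21 (AT5G39260), EXPA22 (AT5G39270), EXPA23 (AT5G39280), EXPA26 (AT5G39290), EXPA25 (AT5G39300) and EXPA24 (AT5G39310), with AT5G39250 before them and UDG4 after them. They fall into pairs by sequence. The coding sequences of EXPA22 and EXPA26 were 97.7% identical over 840 aligned bases, and those of EXPA23 and EXPA25 97.5% over 828. Between the pairs, EXPA22 and EXPA23 were 84.3% identical. EXPA21 was 79.0% identical to EXPA22, and EXPA24 was 72.0% to 74.2% identical to the other 5. To show how alike the genes are to a read of ordinary length, the same 75 coding bases of each are given 5′ to 3′ from RefSeq's TAIR10.1 sequence, minus strand, with capitals where a base is unlike EXPA22.
EXPA21 (chr5:15726692-15726766): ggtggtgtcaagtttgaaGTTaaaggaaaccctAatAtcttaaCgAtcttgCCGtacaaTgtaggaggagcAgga
EXPA22 (chr5:15729331-15729405): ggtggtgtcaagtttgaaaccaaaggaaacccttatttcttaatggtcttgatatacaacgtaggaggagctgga
EXPA23 (chr5:15730926-15731000): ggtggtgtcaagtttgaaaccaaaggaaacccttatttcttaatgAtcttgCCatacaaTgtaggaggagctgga
EXPA26 (chr5:15736084-15736158): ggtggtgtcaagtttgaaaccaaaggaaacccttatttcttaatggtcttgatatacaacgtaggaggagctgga
EXPA25 (chr5:15737640-15737714): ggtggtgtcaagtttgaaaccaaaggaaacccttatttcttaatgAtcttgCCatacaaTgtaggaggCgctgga
EXPA24 (chr5:15739496-15739570): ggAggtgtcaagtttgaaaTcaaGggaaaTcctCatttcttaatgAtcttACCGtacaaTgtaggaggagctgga
EXPA26 had 0 bases unlike EXPA22 here, EXPA23 had 4, EXPA25 had 5, EXPA24 had 11 and EXPA21 had 12, and 58 positions were the same in all 6. Over the whole exons, 48.1% of the 31-base words of EXPA22 recurred in EXPA26 and 63.1% of those of EXPA23 in EXPA25. How reads that match 2 loci were counted is not given in the sources used here, so the split of reads within each pair is uncertain, and the sum of each pair is given beside its members. For EXPA21 0.0% of these words recurred elsewhere, but 79.3% of the gene lies opposite AT5G39250 on the other strand, and marking of strand is not stated. That partner had 51 to 246 reads per library in A. thaliana control and C24 hybrid seeds, against 2726 to 9461 reads of EXPA21. In Col hybrid seeds it had 118 and 38 reads against 252 and 198. In Col hybrid siliques it had 110 and 128 against 69 and 159, and in C24 hybrid siliques 99 and 71 against 303 and 28. In the A. arenosa control it had 8 and 2 against 11 and 8. Whether low EXPA21 counts hold reads of the partner was not tested.

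The stretches just upstream also pair up. The 250 bases before the annotated transcript starts of EXPA22 and EXPA26, which rose together in hybrid seeds, are given 5′ to 3′ on the minus strand, from RefSeq's TAIR10.1 sequence, with searched motifs in capitals.
EXPA22 upstream (chr5:15730232-15730481): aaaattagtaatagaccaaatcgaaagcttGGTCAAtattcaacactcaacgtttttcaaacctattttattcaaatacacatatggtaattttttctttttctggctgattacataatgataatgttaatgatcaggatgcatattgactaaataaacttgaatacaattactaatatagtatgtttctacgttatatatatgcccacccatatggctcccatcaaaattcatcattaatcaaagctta
EXPA26 upstream (chr5:15736980-15737229): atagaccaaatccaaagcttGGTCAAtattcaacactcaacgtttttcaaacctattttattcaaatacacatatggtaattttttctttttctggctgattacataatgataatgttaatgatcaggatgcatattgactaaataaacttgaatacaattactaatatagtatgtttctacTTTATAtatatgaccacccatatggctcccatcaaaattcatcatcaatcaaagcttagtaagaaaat
Aligned with the first 50 bases of the transcript included, the EXPA22 and EXPA26 windows were 97.6% identical over 290 bases, and the EXPA23 and EXPA25 windows 75.2% over 270. Both windows held TTGACC, the core of the W box that WRKY factors bind, read on the opposite strand as GGTCAA. EXPA26 also held TATAAA, read as TTTATA. In windows of 300 bases searched on both strands, TTGACC was in 27.8% of the 36 members and in 14.2% of 27443 protein-coding genes. TATAAA was in 55.6% and 52.1%, the auxin response element core TGTCTC in 16.7% and 14.2%, the G box CACGTG in 2.8% and 7.7%, and the CArG box of MADS factors in 0 and 3.0%. These are matches of letters and do not show binding.

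**Figure D1:**
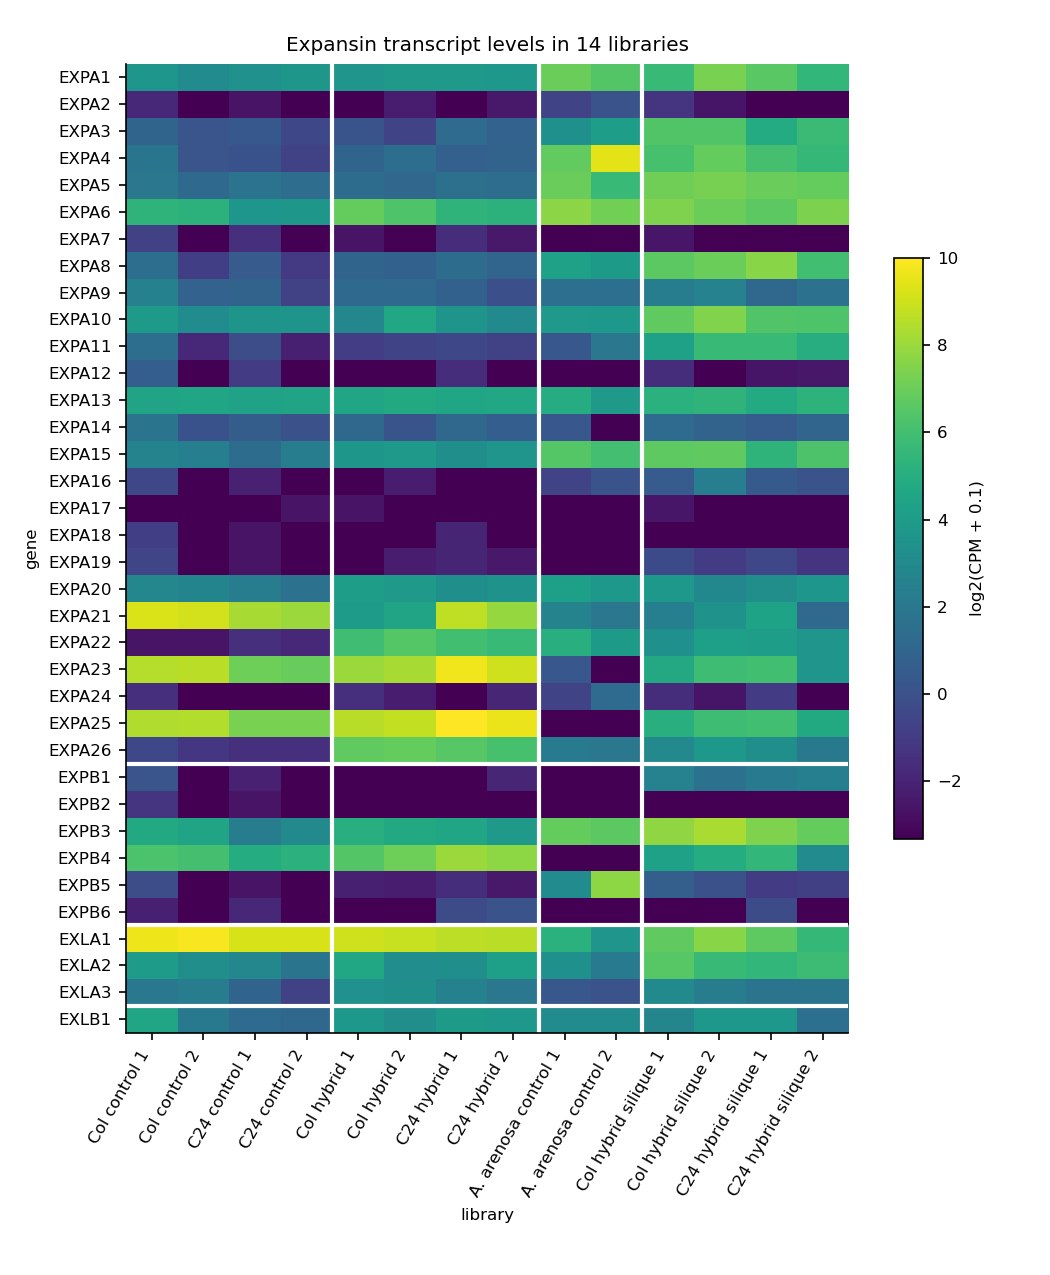
Level of each of the 36 expansins (rows) in each of the 14 libraries (columns), as log2(CPM + 0.1), with white lines between the subfamilies and between groups of libraries. EXPA21, EXPA23, EXPA25 and EXLA1 are bright in seeds with an A. thaliana mother, EXPA22 and EXPA26 are darkest in the 4 A. thaliana control columns, and EXPA4, EXPA5 and EXPA6 are bright in the A. arenosa and silique columns.

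In seeds with an A. thaliana mother, expansin reads came from few genes. Levels between genes are compared per kilobase of exon (CPM per kilobase, RPKM), averaged over both libraries. In Col control seeds the highest were EXLA1 (AT3G45970) at 818, EXPA21 at 541, EXPA23 at 417 and EXPA25 at 378 RPKM. In C24 control seeds the order was EXLA1 at 552, EXPA21 at 265, EXPA25 at 172 and EXPA23 at 135 RPKM. In Col hybrid seeds it was EXLA1 at 467, EXPA25 at 445, EXPA23 at 302 and EXPA26 at 118 RPKM, with EXPA21 no longer among the top 4. In C24 hybrid seeds EXPA25 at 974 and EXPA23 at 743 RPKM stood above EXLA1 at 376 and EXPA21 at 307. The A. arenosa control had another set, EXPA4 (AT2G39700) at 275, EXPA6 (AT2G28950) at 110, EXPB5 (AT3G60570) at 97.5 and EXPA1 (AT1G69530) at 70.1 RPKM. Siliques had EXLA1 at 145 and EXPB3 (AT4G28250) at 129 RPKM first with a Col mother, and EXPA8 (AT2G40610) at 100.2 and EXPA6 at 84.0 first with a C24 mother.

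All expansins together made up 2417 and 2441 CPM in Col controls and 1716 and 1829 in Col hybrids, lower without overlap. They made up 1314.5 and 1246 CPM in C24 controls and 3305 and 2444 in C24 hybrids, higher without overlap. The 6 genes of chromosome 5 gave 55.1% and 53.2% of expansin reads in Col controls, 48.1% and 53.5% in Col hybrids, 45.4% and 43.4% in C24 controls and 74.4% and 68.4% in C24 hybrids. In the A. arenosa control they gave 4.7% and 1.7%, and in siliques 5.5% to 12.3%. At the other end, EXPA2, EXPA7, EXPA12, EXPA17, EXPA18, EXPA19, EXPA24 and EXPB2 had at most 23 reads in any library and were left out of every fit by the filter on low counts. EXPA7 and EXPA18 are genes of root hair growth, EXPA17 acts in lateral roots, and EXPA19 (AT3G29365) is annotated as a transcribed pseudogene.

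**Figure D2:**
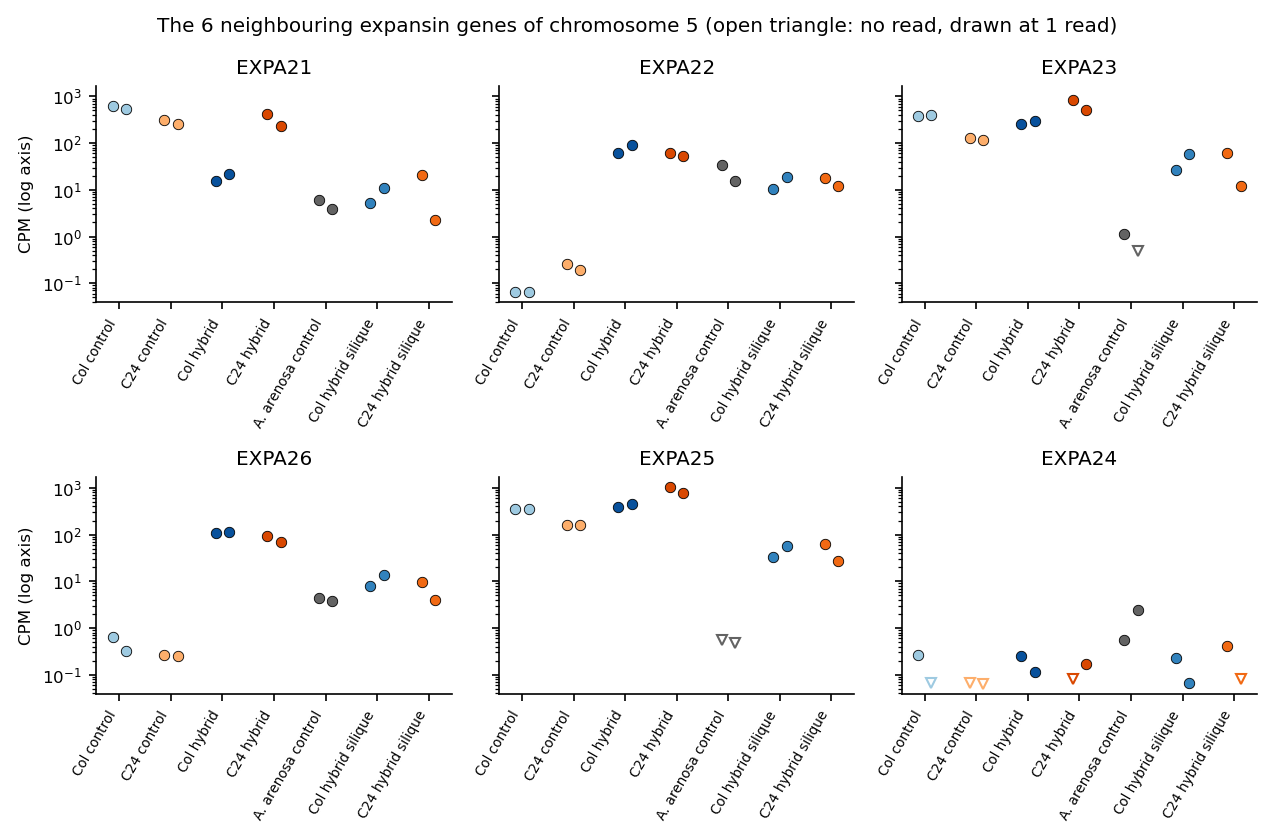
CPM on a log axis of the 6 neighbouring alpha-expansins of chromosome 5 in each library, 1 point per library, by group; an open triangle marks a library with no read, drawn at the level of 1 read. EXPA22 and EXPA26 sit below 1 CPM in the 4 A. thaliana control libraries and at 52.5 to 114.2 CPM in the 4 hybrid seed libraries, while EXPA21 sits at 15.6 and 22.2 CPM in Col hybrids and at 236 to 612 CPM in the other seed libraries with an A. thaliana mother.

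The first question was which expansins differ between hybrid and control seeds of the Col cross, the cross described as incompatible. EXPA22 and EXPA26 were near 0 in controls and high in hybrids, EXPA6, EXPA15 and EXPA20 rose by less, and EXPA21 fell to a small share of its control level. EXPA22 was at 0.065 CPM in both Col control libraries, 1 read each, and at 61.5 and 90.4 CPM in the hybrids. Those are 2 control reads against 1800 hybrid reads, a ratio of CPM of 1107 with a 95% interval of 305.9 to 9144 that covers counting error only. EXPA26 was at 0.647 and 0.325 CPM in Col controls and 107.2 and 114.2 in Col hybrids. Neither gene's groups overlap.

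Fold changes were fitted with edgeR on all 20552 genes that passed the filter, are given as log2 with their SE, and are called at an adjusted p (Benjamini-Hochberg over all genes) under 0.05. EXPA26 was higher by 7.94. Its p-value is left out, since it shares words with EXPA22 and was under the filter's level, given below, in both control libraries. The sum of EXPA22 and EXPA26 was higher by 8.52, with no test. Of the 24 other members tested in this comparison 4 were called higher and 2 lower, against 10.4% of all genes called higher and 6.38% called lower. The rule used this contrast, so nothing is read from the count. A member that reached the filter's level (0.651 CPM in at least 2 libraries) on one compared side alone could be tested only because it was high there, so each count is also given without such members. Without them 21 members were left, of which 3 were higher and 2 lower. Of all genes chosen alike, that is without those that reached it on one side alone, 10.9% were higher and 5.88% lower.

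EXPA6, an alpha-expansin of growing tissues, was at 40.0 and 38.1 CPM in Col controls and 113.9 and 81.1 in Col hybrids. It rose by 1.46 ± 0.152 (adjusted p = 0.00119). EXPA15 (AT2G03090) went from 6.08 and 5.27 CPM to 13.2 and 14.2, a rise of 1.41 ± 0.289 (adjusted p = 0.0147). EXPA20 (AT4G38210) went from 7.18 and 6.44 CPM to 17.0 and 14.4, a rise of 1.35 ± 0.22 (adjusted p = 0.00656). For each of the 3 the hybrid libraries lie above both control libraries. EXPA20 lies over 87.1% of its length opposite AT4G38215, which had at most 15 reads in any library.

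EXPA21 was at 612 and 542 CPM in Col controls and 15.6 and 22.2 in Col hybrids. It fell by 4.80 ± 0.321 (adjusted p = 0.000171), a 27.9-fold lower level, and kept that call in every alternative run for this comparison. EXLA1 was at 807 and 935 CPM in controls and 521 and 474 in hybrids, a fall of 0.67 ± 0.133 (adjusted p = 0.0132). That call was lost in 5 of 13 alternatives, among them without the second Col control library (adjusted p = 0.187) or without the first or second Col hybrid library (0.162 and 0.29). The other pair of the cluster did not pass the test. EXPA23 was at 373 and 397 CPM in controls and 256.4 and 303 in hybrids (log2 difference -0.32, adjusted p = 0.353), and EXPA25 at 347 and 359.9 in controls and 384 and 448 in hybrids (0.38, adjusted p = 0.154). Their sum differed by 0.06 ± 0.187 (adjusted p = 0.855).

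Against C24 controls, 11 of the 25 expansins tested were higher in C24 hybrid seeds. EXPA22 and EXPA26 again went from near 0 to high levels, EXPA23, EXPA25 and the beta-expansin EXPB4 (AT2G45110, chromosome 2) rose, and EXPA21 was not called. This comparison shares no library with the one that chose the family. 1 was called lower, while 16.8% of all genes were called higher and 15% lower. Without members that reached the filter's level on one side alone, 8 of 17 were higher and 1 lower, beside 16.9% and 15.6% of genes chosen alike. The median log2 difference of the 17 was 1.42. EXPA22, EXPA26 and EXLA3 were called higher and had reached it in the hybrid libraries alone.

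EXPA22 was at 0.26 and 0.188 CPM in C24 controls, 7 reads in all, and at 62.4 and 52.5 in C24 hybrids, with 1390 reads. It rose by 7.96. EXPA26 was at 0.26 and 0.251 CPM in controls and 94.0 and 69.2 in hybrids, a rise of 8.28. Summed, the pair rose by 8.16. These rises are given without a p-value, since both genes had reached the filter's level in the hybrid libraries alone. EXPA22 held 36.4% to 44.2% of the pair's reads in the 4 hybrid seed libraries. The rise of the pair thus does not depend on how reads were shared between its rows. Both genes were also called with no filter on low counts.

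EXPA25 was at 159 and 162 CPM in C24 controls and 1028 and 795 in C24 hybrids. It rose by 2.51 ± 0.176 (adjusted p = 0.000116). EXPA23 was at 131.7 and 118 CPM in controls and 855 and 518 in hybrids, a rise of 2.47 ± 0.237 (adjusted p = 0.000381). The pair's sum rose by 2.49 ± 0.198 (adjusted p = 0.000193). EXPB4 was at 30.9 and 37.3 CPM in controls and 257 and 213 in hybrids, a rise of 2.79 ± 0.243 (adjusted p = 0.000271). In all 3 genes the first C24 hybrid library was the higher one. The summed endosperm markers were also highest there, at 185.9 CPM against 95.7 in the second C24 hybrid library and 102.7 and 81.4 in the C24 controls. In the Col cross they were at 103 and 99.2 CPM in controls and 55.5 and 70.5 in hybrids. The genes of that list did not move together. AGL62 was at 13.9 and 19.3 CPM in Col controls and 29.4 and 43.8 in Col hybrids, and YUC10 at 2.59 and 2.93 and at 7.49 and 12.8. FWA was at 62.9 and 59.8 CPM in Col controls and 17.5 and 13.1 in Col hybrids, FIS2 at 16.7 and 9.496 and at 0.991 and 0.224, and ZOU at 6.86 and 7.74 and at 0.186 and 0.672. In the C24 cross AGL62 was at 7.81 and 9.36 CPM in controls and 86.7 and 41.4 in hybrids, FWA at 51.1 and 43.8 and at 76.0 and 44.2, and FIS2 at 28.4 and 18.0 and at 2.15 and 1.82. Their part in the result was not tested.

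The expansin-like gene EXLB1 (AT4G17030) was at 2.47 and 2.20 CPM in C24 controls and 15.4 and 13.7 in C24 hybrids, a rise of 2.65 ± 0.685 (adjusted p = 0.0194). EXLA3 (AT3G45960, 5.2% of its 31-base words found elsewhere) rose by 1.99, EXPA6 by 1.59, EXPA15 by 1.58, EXPB3 by 1.5 and EXPA20 by 1.42. EXPA6, for example, was at 12.9 and 13.01 CPM in controls and 40.1 and 37.5 in hybrids. EXLA1 was the member called lower, from 595 and 581 CPM to 411 and 391, a fall of 0.55 ± 0.133 (adjusted p = 0.0152) that was lost in 7 of 13 alternatives, among them without any 1 of the 4 C24 seed libraries (adjusted p = 0.151 to 0.37). EXPA21 was at 306 and 259.8 CPM in controls and 419 and 236 in hybrids, so its groups overlap, and its difference was 0.22 ± 0.269 (adjusted p = 0.579).

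**Figure D3:**
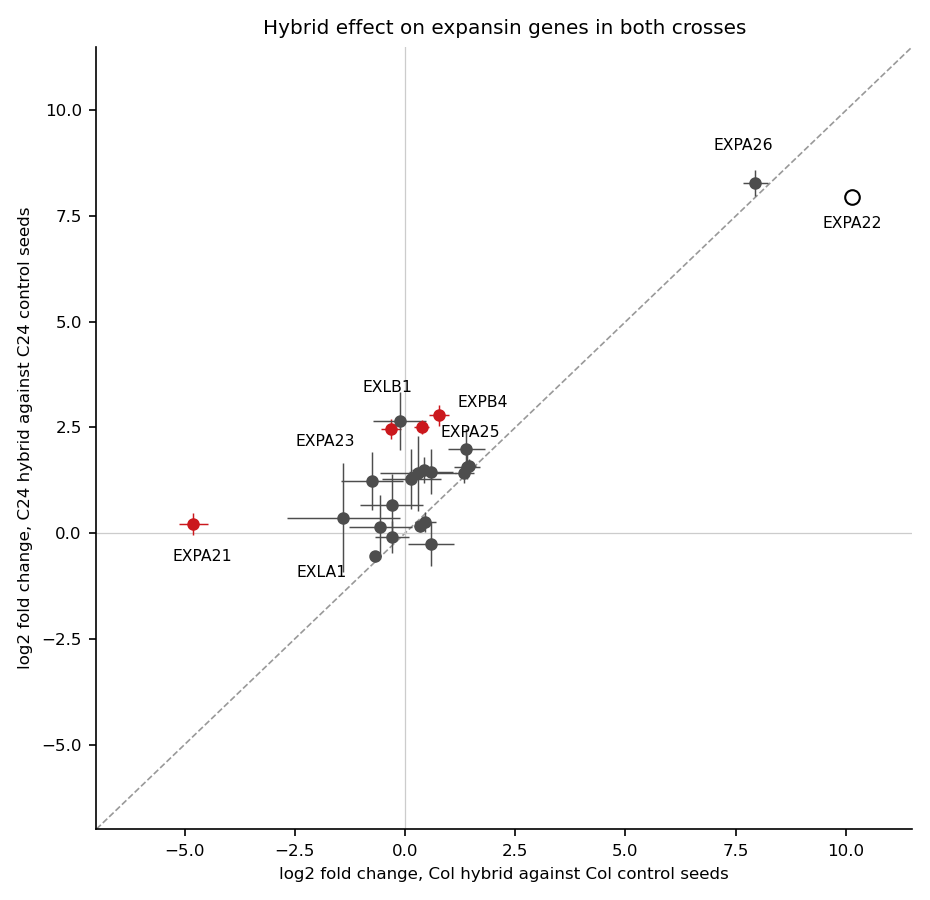
Fitted log2 fold change of hybrid against control seeds for 24 members, with a Col mother on the x axis and a C24 mother on the y axis; bars are SE, the dashed line marks equal change, red marks members whose effects differ between the crosses at an adjusted p under 0.05, and the open circle (EXPA22) has no test. EXPB6, with no read in Col hybrids, is not drawn. EXPA21 lies far left at -4.80, and EXPA23, EXPA25 and EXPB4 lie at 2.47 to 2.79 on the y axis and -0.32 to 0.77 on the x axis.

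The difference between the 2 hybrid effects was tested as an interaction, with the Col effect minus the C24 effect. It was called for 4 of the 24 members other than EXPA22, all lower, where 0.414% of all genes were called higher and 0.973% lower. EXPA21 differed by -5.02 ± 0.408 (adjusted p = 0.00142), EXPA23 by -2.78 ± 0.324 (adjusted p = 0.0068), EXPA25 by -2.13 ± 0.238 (adjusted p = 0.00591) and EXPB4 by -2.02 ± 0.326 (adjusted p = 0.0247). These 4 genes are thus a strong fall against no called change for EXPA21, and no called change against a rise for the others. The sum of EXPA23 and EXPA25 differed by -2.43 ± 0.269 (adjusted p = 0.00552). For EXPA26 the 2 effects lie side by side at 7.94 and 8.28. With all 7 groups in one fit none of the 4 was called, with adjusted p values of 0.0825 for EXPA21, 0.307 for EXPA23, 0.209 for EXPA25 and 0.461 for EXPB4. With the second library alone for each control, EXPB4 was not called (adjusted p = 0.104).

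The hybrids compared directly share their libraries with the comparisons above. Of 24 members other than EXPA22, 1 was called higher in Col hybrids and 4 lower, beside 5.2% of all genes higher and 4.58% lower. All 5 had reached the filter's level in both hybrids. EXPA21 was lower in Col hybrids (-4.14 ± 0.313, adjusted p = 0.000135). EXPA23 differed by -1.31 ± 0.228 (adjusted p = 0.00894), EXPA25 by -1.14 ± 0.168 (adjusted p = 0.00382) and EXPB4 by -1.09 ± 0.229 (adjusted p = 0.0197). EXPA6 was the member higher in Col hybrids, by 1.31 ± 0.153 (adjusted p = 0.00121). EXPA26, counted among those not called, differed by 0.43 and is given without a p-value, since it shares words with EXPA22. Without the first C24 hybrid library, which was the higher one for EXPA21, EXPA23, EXPA25 and EXPB4, only 2 members were called, and EXPA23, EXPA25 and EXPB4 had adjusted p values of 0.0735, 0.0524 and 0.107. Without the first Col hybrid library EXPA23 and EXPB4 were not called either (adjusted p = 0.0577 and 0.119).

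The controls of the 2 mothers also differed. Of 25 members 7 were higher in Col than in C24 control seeds and 0 lower. EXPA22 is counted among those not called, and nothing is read from its outcome. Of all genes 7.85% were higher and 8.91% lower. Without members that reached the filter's level on one side alone, 6 of 21 were higher and 0 lower, beside 6.65% and 9.19% of genes chosen alike. EXPB3 was at 26.8 and 21.7 CPM against 4.75 and 8.36 (1.73 ± 0.299, adjusted p = 0.00666). EXPA23 was higher by 1.48 ± 0.23 (adjusted p = 0.00418), EXPA6 by 1.44 ± 0.159 (adjusted p = 8e-04), EXPA25 by 0.99 ± 0.168 (adjusted p = 0.00623) and EXPB4 by 0.93 ± 0.232 (adjusted p = 0.0295). EXLA3, which had reached the filter's level in Col controls alone, was higher by 1.72 and is given without a p-value. EXLB1 was at 23.6 and 4.03 CPM in Col and 2.47 and 2.20 in C24 controls, and its call (2.41 ± 0.679, adjusted p = 0.0446) was lost without the first Col control library (0.72, adjusted p = 0.191). EXPA21 was at 612 and 542 against 306 and 259.8 CPM, and its difference of 0.88 did not pass (adjusted p = 0.0583). EXPB4 was not called without any 1 of the 4 control libraries, EXPA25 not without the first C24 control, and EXLA3 not without the second Col or C24 control. EXPA22 was at or under 0.26 CPM in all 4 control libraries.

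The A. arenosa parent was set against the 2 A. thaliana controls, weighted equally, with 21619 genes fitted. Its libraries had high EXPA4, EXPB5, EXPA5 and EXPA15 and almost none of the genes that lead in A. thaliana seeds. Without members that reached the filter's level (0.716 CPM in 2 libraries) on one side alone, 9 of 19 were called higher and 2 lower. Of the 16656 genes chosen alike 25.1% were higher and 29.7% lower, beside 24% and 31.3% of all 21619 genes. EXPB5, EXPA22 and EXPA26 reached it in the A. arenosa control alone, and EXPA14, EXPA23, EXPA25 and EXPB4 in the A. thaliana controls alone. These libraries are shallow, and their sequence differs from the A. thaliana reference, so low transcript and poor alignment of A. arenosa reads cannot be told apart. They also held few endosperm and seed coat marker reads, as given above, so species and tissue make-up cannot be told apart either.

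EXPA4 and EXPB5, both genes of pollen tube growth, were at 112.5 and 713 CPM and at 8.44 and 218 CPM in the first and second A. arenosa library. In the 4 control libraries EXPA4 was at 0.503 to 3.49 CPM and EXPB5 at 0 to 0.776. EXPA4 was higher by 8.18 ± 0.724 (adjusted p = 1.7e-05), and EXPB5 gets no test here. Both were far higher in the second A. arenosa library, as were the pollen markers at 9838 against 1523 CPM, whose part in the result was not tested. Without that library EXPA4 still differed by 6.14 (adjusted p = 5.23e-06), and without the first by 9.0.

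**Figure D4:**
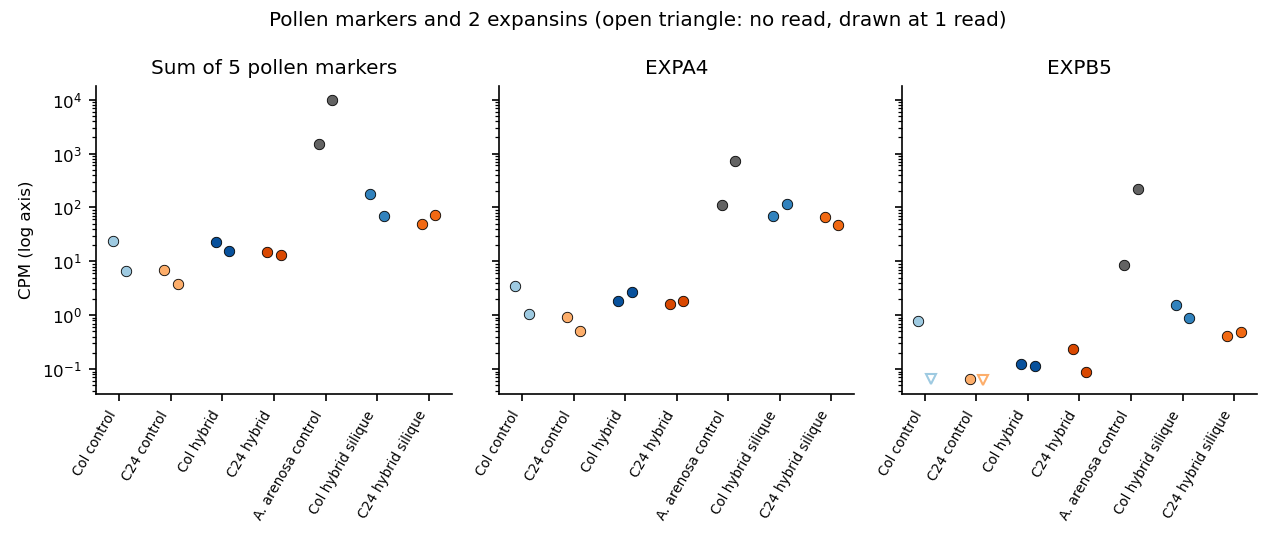
CPM on a log axis of the sum of 5 pollen marker genes, of EXPA4 and of EXPB5 in each library, by group; an open triangle marks no read, drawn at the level of 1 read. The second A. arenosa library is the highest of the 14 in all 3 panels.

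EXPA22 was at 34.3 and 15.3 CPM in the A. arenosa control and at or under 0.26 in the A. thaliana controls. These values are given with no test, since the Col controls served to choose the gene. EXPA26 was at 4.50 and 3.83 CPM, higher by 3.27. It gets no test here either, as it reached the filter's level in the A. arenosa control alone. EXPA22 held 88.4% and 80.0% of the pair's reads there. EXPA5 (AT3G29030), an expansin of shoot growth, was higher by 4.58 ± 0.29 (adjusted p = 3.45e-06) and EXPA15 by 3.80 ± 0.258 (adjusted p = 4.65e-06). EXPA8, EXPA3 (AT2G37640), EXPA1, EXPB3, EXPA6 and EXPA20 were called higher, by 1.38 to 3.69.

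EXPA25 and EXPB4 had 0 reads in both A. arenosa libraries, and EXPA23 had 2 reads, both in the first library (1.13 and 0 CPM), where the A. thaliana controls had 118 to 397 CPM. Against the limit of 3 reads per library, the mean control level of EXPA25 was higher by at least 7.25 on the log2 scale and that of EXPB4 by at least 4.99. EXPA21 was at 6.19 and 3.83 CPM (-6.60 ± 0.388, adjusted p = 2.57e-06) and EXLA1 at 36.6 and 12.4 CPM (-5.17 ± 0.38, adjusted p = 6.48e-06). The genes at low level in the A. arenosa control thus include those that lead in A. thaliana seeds.

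Hybrid seeds were also set against the A. arenosa control, which these comparisons share with the one above. With a Col mother, 4 members were called higher and 6 lower of the 18 other than EXPA22 that reached the filter's level on both sides. EXPA26 is counted among the 4. Of genes chosen alike 27.1% were higher and 18.4% lower, and of all genes 29.2% and 20.5%. With a C24 mother 5 were higher and 8 lower of 19. The shares were 27.2% and 20% of genes chosen alike, and 29.4% and 21.8% of all genes. EXPA23, EXPA25 and EXPB4, high in hybrids, and EXPB5, high in the A. arenosa control, reached that level on one side alone. EXPA25 was at least 266.5-fold higher in Col hybrids and 583.9-fold higher in C24 hybrids, and EXPB4 at least 71-fold and 150.4-fold, taking 3 reads per library as the floor. EXPA23, with 2 reads in the A. arenosa control, had a ratio of CPM of 527.6 in Col hybrids (counting interval 146 to 4357) and of 1342 in C24 hybrids (371.3 to 11080). EXPA26 was higher than in A. arenosa by 5.04 in Col hybrids, with no test, and by 4.59 ± 0.29 in C24 hybrids (adjusted p = 5.71e-06). EXPA22 was higher than in A. arenosa by 1.54 ± 0.313 in C24 hybrids (adjusted p = 0.00261) and, with no test, by 1.96 in Col hybrids. Their sum was higher by 2.59 in C24 hybrids (adjusted p = 9.97e-05). Hybrid seeds therefore held more EXPA26 reads than the control seeds of either parent, and in the C24 cross more EXPA22 reads. For the A. arenosa side, the limits of depth, alignment and tissue make-up given above apply. For the hybrids, the limit on reads of the father's alleles applies.

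EXPA21 was higher than in A. arenosa by 2.24 ± 0.389 in Col hybrids and by 6.34 ± 0.397 in C24 hybrids (adjusted p = 0.00114 and 5.52e-06). The Col call was lost with all 7 groups in one fit (2.21 ± 0.908, adjusted p = 0.0621). Its Col hybrid level of 15.6 and 22.2 CPM thus lay above the A. arenosa control and below the Col control. EXPA4 was lower than in A. arenosa by -7.31 and -7.69, EXPA5 by -4.92 and -4.64, EXPA1 by -2.71 and -2.64 and EXPA15 by -2.18 and -2.50 on the log2 scale in Col and C24 hybrids. EXPA8 was lower by -2.99 and -2.66, and lost its call without either hybrid library of a cross (adjusted p = 0.0661 to 0.108). In the C24 cross EXPA3 lost its call without the second C24 hybrid or second A. arenosa library (adjusted p = 0.0635 and 0.0878), and EXLA3, which was higher by 2.46, without the first C24 hybrid or second A. arenosa library (0.0766 and 0.0739). EXPA6 was lower in C24 hybrids (-1.86 ± 0.215, adjusted p = 0.000107) and not called in Col hybrids (-0.54, adjusted p = 0.0559).

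Whole siliques of the hybrid crosses were set against hybrid seeds, in a fit of 20700 genes. A silique holds its seeds as well as the fruit wall. Its libraries had lower sums of the seed coat and endosperm markers than seeds did. Of the fruit genes, FUL, IND and ALC were higher than in seeds, and SHP1 and SHP2 lower. The part of these tissues in the results was not tested. Many alpha-expansins that were near 0 in seeds were high in siliques, and the seed genes of chromosome 5, EXPB4 and EXLA1 were lower. With a Col mother 21 members other than EXPA22 reached the filter's level (0.781 CPM in 2 libraries) in both tissues. Of these 8 were called higher and 7 lower, with EXPA26 counted among the 7. Of genes chosen alike 24% were higher and 25.3% lower, and of all genes 29.8% and 23.4%. With a C24 mother 10 of 24 were higher and 7 lower. The shares were 26.6% and 28% of genes chosen alike, and 31.9% and 26.9% of all genes. EXPB1, EXPA16 and EXPA11 reached that level in siliques alone in both crosses, and EXPB5 and EXPA3 did so in the Col cross.

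EXPA5 was at 2.48 and 2.02 CPM in Col hybrid seeds and 141 and 157 in Col hybrid siliques (5.79 ± 0.224, adjusted p = 3.71e-06). In the C24 cross it was at 2.95 and 2.60 CPM in seeds and 124 and 115 in siliques (5.26 ± 0.217, adjusted p = 2.01e-06). EXPA8 and EXPA4 did not overlap between seeds and siliques either. EXPA8 was higher by 5.75 ± 0.58 with a Col mother (adjusted p = 6.38e-05) and by 5.74 ± 0.57 with a C24 mother (adjusted p = 4.72e-05). EXPA4 was higher by 5.16 ± 0.359 (adjusted p = 1.06e-05) and 4.92 ± 0.364 (adjusted p = 1.04e-05). EXPA3 was higher by 4.13 ± 0.334 with a C24 mother (adjusted p = 1.6e-05). EXPA11 (AT1G20190) was at 0.433 and 0.56 CPM in Col hybrid seeds, 0.637 and 0.52 in C24 hybrid seeds, 19.8 and 51.3 in Col siliques and 50.8 and 32.1 in C24 siliques. EXPB3 was higher by 2.93 and 2.77, EXPA10 (AT1G26770), which acts in leaf growth, by 2.92 and 2.90, EXPA1 by 2.75 and 2.19, EXPA15 by 2.73 and 2.24 and EXLA2 (AT4G38400) by 1.84 and 1.69. EXPB1 (AT2G20750) had 0 reads in Col hybrid seeds and was at least 17.19-fold higher in siliques. In the C24 cross it had 2 seed reads against 131, a ratio of 58.9 with a counting interval of 16.0 to 491.5. EXPA16 (AT3G55500) had 1 seed read against 91 in the Col cross and 0 against 30 in the C24 cross. EXPB5 had 3 seed reads against 33 in the Col cross. EXPA6 was called in the C24 cross alone (1.61 ± 0.284, adjusted p = 0.00117), and the difference between crosses was not tested. The call of EXLA2 was lost without the second Col hybrid seed or first Col silique library (0.0529 and 0.0563) and without the first C24 hybrid seed library (0.096).

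EXPA26 was lower in siliques by -3.60 with a Col mother, with no test, and by -3.69 ± 0.423 with a C24 mother (adjusted p = 0.000108). EXPA25 differed by -3.43 ± 0.433 and -4.51 ± 0.455 (adjusted p = 0.000222 and 5.19e-05) and EXPA23 by -2.96 ± 0.676 and -4.35 ± 0.72 (0.00547 and 0.000812). EXPB4 differed by -2.40 ± 0.619 and -3.27 ± 0.638 (adjusted p = 0.00971 and 0.00202) and EXLA1 by -1.94 ± 0.407 and -2.55 ± 0.417 (0.00353 and 0.000763). EXPA22 was at 10.3 and 18.4 CPM in Col hybrid siliques and 17.6 and 12.2 in C24 hybrid siliques, and in the C24 cross it was lower than in seeds by -2.10 ± 0.32 (adjusted p = 0.00052). It held 57.0% to 75.2% of the reads of its pair in siliques, more than its 36.4% to 44.2% in hybrid seeds. EXPA21 was at 21.1 and 2.25 CPM in C24 hybrid siliques, lower than in C24 hybrid seeds (-4.94 ± 0.834, adjusted p = 0.000919), and at 5.29 and 10.8 CPM in Col hybrid siliques, where the difference from seeds did not pass (-1.46, adjusted p = 0.135). EXLA3 (-0.92) and EXPA20 (-0.82) were called lower in the Col cross alone, and lost their calls without either Col hybrid seed library or the second Col silique library (adjusted p = 0.0829 to 0.185). EXPB4 lost its Col call without the second Col hybrid seed or first Col silique library (0.0575 and 0.0594).

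**Figure D5:**
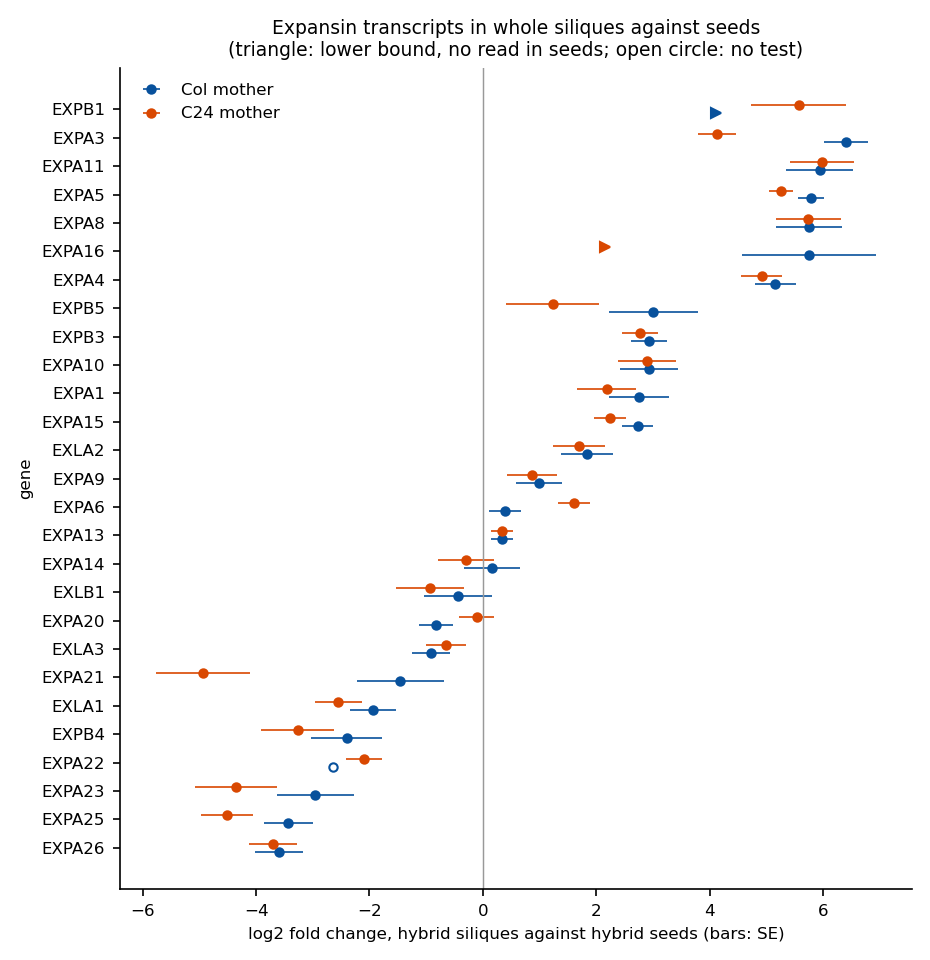
Fitted log2 fold change of hybrid siliques against hybrid seeds for the 27 members tested, with a Col mother in blue and a C24 mother in orange; bars are SE, triangles are lower bounds where seeds had no read, and the open circle (EXPA22, Col mother) has no test. The genes from EXPB1 to EXLA2 lie right of 0 in both crosses and those from EXLA1 down to EXPA26 lie left of 0 in both.

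Between the siliques of the 2 crosses no member was called at an adjusted p under 0.05 with edgeR, beside 2.49% of all genes higher with a Col mother and 1.82% lower. At an unadjusted p under 0.05 there were 6, and DESeq2 called 0. EXPA21 was at 5.29 and 10.8 CPM with a Col mother and 21.1 and 2.25 with a C24 mother, so its groups overlap. The same holds for EXPA23, at 26.4 and 59.1 against 61.8 and 12.1 CPM, and for EXPA25, at 33.4 and 58.0 against 61.7 and 26.9. The second C24 hybrid silique library was the lower one for all 3, and the crosses could not be told apart in siliques at this spread.

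Other wall genes were counted for background in lists of xyloglucan-modifying enzymes (XTH, which cut and rejoin the tethers between cellulose fibres), plasma membrane proton pumps (AHA, which acidify the wall) and cellulose synthases (CESA). In the seed fit 22 of 33 XTH, 8 of 11 AHA and 10 of 10 CESA genes were tested. The other fits tested other numbers of XTH and AHA genes. All counts of these lists include genes that reached the filter's level on one side alone. Of all genes 10.4% were higher and 6.38% lower in the Col comparison, and 16.8% and 15% in the C24 comparison. In the Col comparison 0 XTH were higher and 2 lower, XTH9 (-1.07 ± 0.209, adjusted p = 0.0125) and XTH4 (-0.79 ± 0.17, adjusted p = 0.0172), 1 AHA was higher, AHA1 (0.63 ± 0.144, adjusted p = 0.0218), and 0 CESA were called, with 3 at an unadjusted p under 0.05. In the C24 comparison 1 XTH was higher and 3 lower, with XTH9 at -1.31 ± 0.212 (adjusted p = 0.00275). The 1 higher was XTH2, with 2 control reads against 69 hybrid reads, which reached the filter's level in the hybrid libraries alone. There 3 AHA were higher and 2 lower, with AHA8 at 1.27 ± 0.398 (adjusted p = 0.0404) and AHA4 at -1.31 ± 0.202 (adjusted p = 0.0022), and 1 CESA was higher and 2 lower, with CESA2 at -0.71 ± 0.181 (adjusted p = 0.0182). The median log2 difference in the C24 comparison was -0.10 for XTH, 0.07 for AHA and -0.36 for CESA. In the interaction, edgeR called 0 genes of the 3 lists, beside 0.414% of all genes higher and 0.973% lower. At an unadjusted p under 0.05 there were 2 XTH, 3 AHA and 0 CESA. Directly between hybrids 3 XTH and 1 AHA were higher with a Col mother and 2 XTH and 1 CESA lower. The shares of all genes were 5.2% and 4.58%. Between controls 3 XTH were higher with a Col mother and 2 XTH, 1 AHA and 1 CESA lower, beside 7.85% and 8.91%. In the A. arenosa control 9 XTH, 4 AHA and 5 CESA were higher and 8, 2 and 2 lower, beside 24% and 31.3%. In siliques 8 XTH, 4 AHA and 6 CESA were higher than in seeds with a Col mother and 5, 4 and 2 lower. Of all genes 29.8% were higher and 23.4% lower. With a C24 mother 11, 2 and 4 were higher and 4, 4 and 3 lower, beside 31.9% and 26.9% of all genes. Nothing is read from these counts.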

How the data were processed

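Poly(A)-selected, randomly primed RNA of bulk seeds or siliques was sequenced. The unit is raw read counts per gene, as deposited by the authors, who aligned with BWA and used TAIR10, per the submitters' processing notes; the counter, the treatment of reads with several matches and strand marking are not given in the sources used here. Groups followed the labels. The members, lists and tests were chosen with earlier results of these data known. All genes were fitted with edgeR 4.0.16 (quasi-likelihood test, TMM scaling, filterByExpr by group, R 4.3.3, limma 3.58.1) in 3 fits: the Col and C24 control and hybrid seeds, those with the A. arenosa control, and the 4 hybrid groups. The threshold was an adjusted p of 0.05, Benjamini-Hochberg over all genes tested. The fits were tested on simulated counts. DESeq2 1.42.0 was an alternative, with other scalings, filters, sample sets, a replicate block and leave-one-out fits.

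Printed levels are CPM or RPKM of total gene reads; fold changes are from the TMM-scaled fit. Members named were chosen among those called, up to 5 of largest change in each direction and others described with them, with SE and adjusted p for those described first. EXPA22 is given no test where Col hybrid or Col control seeds enter its printed values, but is in the count between controls as not called. EXPA26 is given no p-value where Col hybrid seeds enter, but stays in the counts. Libraries of a group differed beyond sampling noise (chi-square per degree of freedom of 14.03 to 31.15), so none was merged. A count of 0 was given a floor of 3 reads per library, and 95% intervals are exact and cover counting error only. Sequences came from RefSeq's TAIR10.1, aligned with MAFFT 7.526; all 36 members matched a gene model by locus. Transposable element counts were not used here.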

Additional observations from a re-analysis of the deposited data

Results flagged for a closer look

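4 expansins had a hybrid effect that differed between the crosses, by a test of the difference itself (edgeR's interaction term, Col effect minus C24 effect, 2 libraries a group). EXPA21 differed by -5.02 on the log2 scale (adjusted p = 0.00142). EXPA23 differed by -2.78 (adjusted p = 0.0068), EXPA25 by -2.13 (adjusted p = 0.00591) and EXPB4 by -2.02 (adjusted p = 0.0247). EXPA23 and EXPA25 share most of their short sequence words, and their summed reads differed by -2.43 (adjusted p = 0.00552). None of the 4 was called with all 7 groups in one fit.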

How the results depend on the processing

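Over all alternatives 1532 of 1607 values of called members kept their direction and call, 75 kept their direction and lost the call, and 0 reversed. Of 148 counts of called members, 140 stayed within 1.5 times the main count. With all 7 groups in one fit the interaction count went from 4 to 0, the hybrid comparison from 5 to 2 and the control comparison from 7 to 3; the second library alone for each control also gave 3 there. Leaving out 1 library at a time gave 2 to 5 members between hybrids, the lowest without the first C24 hybrid library, and 0 to 2 between siliques, the highest without the second C24 hybrid silique library. Between siliques, no filter on low counts gave 4 calls. The cause was not tested, other than that leaving out libraries leaves fewer samples. The replicate block gave 7 members in the Col comparison, 13 in the C24 comparison, 4 in the interaction, 5 between hybrids, 7 between controls, 17, 15 and 17 against A. arenosa, 19 and 20 in siliques against seeds and 0 between siliques. The labels give the 2 numbers no shared plant, batch or day. Deviations of same-numbered libraries correlated at 0.69 between Col and C24 controls, and at 0.383 and 0.353 between these and C24 hybrids. With Col hybrids they correlated at -0.102 to -0.074 in the same fit, and between the siliques of the crosses at -0.399. Same-numbered control libraries thus shared part of their deviation, and the labels do not say why. Blocks with the numbers crossed, added after seeing the data, gave 4 calls between siliques and 7 between hybrids. Upper quartile scaling moved the share of higher calls over all genes from 62% to 40.2% in the Col comparison and from 46.8% to 59.6% between controls, with the median of all genes at -0.16 and 0.11, and turned no called member's direction. A filter of 5 CPM in 2 libraries moved that share in the Col comparison to 51.9%. The A. arenosa depth of 1777781 and 2089616 reads puts 3 reads at 1.69 and 1.44 CPM, so lower levels were not detectable there.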

Other observations

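A few members were called in no comparison. EXPA13 (AT3G03220) was read in every library, at 20.6 to 27.5 CPM in the 8 seed libraries with an A. thaliana mother, 30.4 and 14.4 in the A. arenosa control and 28.4 to 41.0 in siliques. EXPA9 (AT5G02260) was at 0.503 to 5.92 CPM and EXPA14 (AT5G56320) at 0 to 3.36 CPM across the 14 libraries. EXPB6 (AT1G65681) had no read in Col hybrid seeds, Col hybrid siliques or the A. arenosa control, and was at 0.716 and 0.954 CPM in C24 hybrid seeds, 20 reads in all, against 3 reads in C24 control seeds. That is a ratio of 8.65 with a counting interval of 2.57 to 45.5, and the difference was not called (adjusted p = 0.221).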
